A study of Homo sapiens with 2 samples.

Results

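The genes described here are 172 genes of the neutrophil degranulation term, taken without its phagosome genes, out of 5237 distinct gene identifiers in the GO and KEGG tables. They were selected on a measured value, the presence of a peak that placed the gene among the entries of that GO term, each identifier once, leaving out entries of the KEGG rows Phagosome, Endocytosis, Carbon metabolism, Apoptosis and Autophagy, the V-ATPase subunits, and MPO, PRTN3, LYZ, LCN2, RNASE2, CD14, CYBB, FCAR, GSDMD and CD33. The term held 222 identifiers, so 50 were left out, and 183 symbol entries fell on the 172 that remained. On the 482 background genes of the term, 222 identifiers are 46.1%. That share is what chose the genes and nothing is read from it.

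The immunoprecipitate (IP) was the RNA bound to ALKBH5, a demethylase that erases N6-methyladenosine (m6A) marks on RNA, pulled down with an ALKBH5 antibody, and it was set against the input, the unselected RNA of the lysate. Both came from HL-60, a human promyelocytic leukaemia line used as a model of neutrophil precursors, with no treatment or time given in the labels. Both library names carry the label Ctrl (Ctrl_ip and Ctrl_input). There was 1 IP and 1 input library, and since their titles and library names contradict each other, the library names decided the groups. An IgG library was not analysed here. HL-60 cells are leukaemic precursors and not mature neutrophils. The tables list genes with peaks and hold neither expression levels nor library values. A gene is therefore described as entered or not entered, the depth behind an entry is unknown, and no difference between IP and input can be computed. With 1 library a group there was no replicate check and no test, and every share below is a description.

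Neutrophils carry preformed granules and secretory vesicles, filled in waves while the cell matures in the marrow. On stimulation the vesicles dock at the plasma membrane with the help of RAB GTPases, syntaxin-binding proteins and priming factors, and their membranes fuse, which releases proteases and antimicrobial proteins and brings receptors to the surface. The degranulation annotation also holds many proteins found in isolated granules, among them proteasome subunits, chaperones and metabolic enzymes that every cell uses.

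The labelled cell type was set against its markers, beside a share of 26.1% of all protein-coding genes entered in the GO or KEGG tables. Of 10 promyelocyte markers, 4 were entered in the GO or KEGG tables (CD33, LYZ, MPO and PRTN3), and AZU1, CEBPE, CTSG, ELANE, KIT and MYB were not. All 4 are among the genes that the rule leaves out, so they do not bear on the label of the 172. Of 19 markers of other cells, EPCAM and PECAM1 were entered, and PECAM1, an adhesion molecule that leukocytes also carry, is 1 of the 172. An entry needs a peak and a term that reached the authors' limit, so a missing entry says nothing on the level of a transcript. All 172 genes are protein-coding in RefSeq, where 168 have the same current symbol. In the remaining 4, METTL7A, C16orf62 and ACPP are older symbols, and the identifier of TICAM2, an adaptor of toll-like receptor signalling, carries a read-through symbol with TMED7.

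A pair of promoters is printed for each of 2 lists of members, surface receptors and the proteasome with the ubiquitin system. Each is the 250 bases before the gene's start, from RefSeq (GRCh38.p14), 5′ to 3′ on the strand of the gene, with each CG dinucleotide in capitals, and each was taken because its number of CG dinucleotides was nearest the median of its list, with ties settled by alphabetical order (VCP, with 23, was as near as the proteasome genes shown).
MCEMP1 (receptor, chr19:7676840-7677089, plus strand): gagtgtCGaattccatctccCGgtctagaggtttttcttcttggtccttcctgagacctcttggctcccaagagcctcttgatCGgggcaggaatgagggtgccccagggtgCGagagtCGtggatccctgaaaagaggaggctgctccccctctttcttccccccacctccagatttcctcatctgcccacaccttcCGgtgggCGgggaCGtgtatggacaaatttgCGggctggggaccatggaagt
NFAM1 (receptor, chr22:42437987-42438236, minus strand): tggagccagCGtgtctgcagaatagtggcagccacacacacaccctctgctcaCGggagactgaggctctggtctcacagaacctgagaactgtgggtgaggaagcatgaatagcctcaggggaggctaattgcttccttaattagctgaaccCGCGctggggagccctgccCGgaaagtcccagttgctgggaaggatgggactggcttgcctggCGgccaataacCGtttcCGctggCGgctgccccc
PSMC3 (proteasome, chr11:47426440-47426689, minus strand): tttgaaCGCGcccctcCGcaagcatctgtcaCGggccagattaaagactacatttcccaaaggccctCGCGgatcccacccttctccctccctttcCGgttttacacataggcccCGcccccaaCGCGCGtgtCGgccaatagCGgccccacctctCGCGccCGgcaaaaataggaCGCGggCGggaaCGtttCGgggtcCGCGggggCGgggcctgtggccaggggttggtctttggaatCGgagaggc
PSMD7 (proteasome, chr16:74296564-74296813, plus strand): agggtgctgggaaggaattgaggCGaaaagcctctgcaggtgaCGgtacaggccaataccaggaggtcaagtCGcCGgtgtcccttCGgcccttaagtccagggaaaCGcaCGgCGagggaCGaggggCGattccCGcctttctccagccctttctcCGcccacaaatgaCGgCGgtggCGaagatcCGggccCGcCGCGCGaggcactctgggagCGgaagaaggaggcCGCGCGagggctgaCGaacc
MCEMP1, a membrane protein of mast cells and myeloid cells, and NFAM1, an activating immunoreceptor with a signalling motif in its tail, had 9 CG dinucleotides each. PSMC3, an ATPase of the regulatory particle of the proteasome, and PSMD7, a subunit of its lid, had 25 each. Among the 19 receptor members with a promoter in the reference the median was 9 (range 0 to 45), and among the 16 proteasome and ubiquitin members it was 24 (range 5 to 33). Their median GC content was 60.8% in the receptors and 64.8% in the proteasome and ubiquitin members. In the other lists with a promoter the medians ran from 16.5 (kinases, phosphatases and signalling) to 28 (cytoskeleton and junctions), with chaperones at 18 and granule antimicrobials and proteases at 23.5. Over the 139 members with a promoter the median was 22 CG dinucleotides and 65.2% GC, against 17 and 62.4% over 15843 protein-coding genes. Over the 4341 GO and KEGG identifiers with a promoter the medians were 21 and 64.8%, so the members lay near the other listed genes. A CG, which reads the same on both strands, was present in 96.9% of those 15843 promoters. The peaks lie on RNA and the tables measure nothing at a promoter, so these sequences describe the genes and not the antibody's RNA.

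The term itself was examined first. In the authors' deposited table, neutrophil degranulation had 237 entries on 482 background genes, a rich factor (fold over the overall share) of 1.48 and a p of 0.00638, with a corrected p of 0.412. It is therefore a term under 0.05 before correction and not after it. The 2 granule lumen terms had larger rich factors in the authors' deposited table. There, ficolin-1-rich granule lumen had 81 entries on 123 genes, a rich factor of 1.98 and a corrected p of 0.0767. For secretory granule lumen the authors' deposited table gave 73 entries out of 114 genes, with a rich factor of 1.92 and a corrected p of 0.180. The entries count symbols, so the 237 entries hold 222 identifiers.

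Ficolin-1-rich granules are a class of easily released granules, and their lumen is the soluble content. Among the 172 genes, 55 were in the ficolin-1-rich granule lumen (32.0%, against 1.41% of all 5237 identifiers) and 50 in the secretory granule lumen (29.1%, against 1.30%). All 74 identifiers of the first term and 66 of the 68 of the second belong to the degranulation term, so these shares follow from the annotation. Both terms held 41 of the genes, 1 or the other held 64, and neither held 108. The ficolin-1-rich granule lumen held 15 of the 18 proteasome and ubiquitin members, 14 of the 24 metabolic enzymes and 5 of the 7 chaperones. Of the 27 surface receptors, 0 were in either lumen term.

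The other compartments followed. Cytosol held 93 of the genes (54.1%, against 43.1% of all identifiers) and membrane 70 (40.7%, against 19.2%). The nuclear compartments held a smaller share, with nucleus at 52 genes (30.2%, against 41.8%) and nucleoplasm at 39 (22.7%, against 35.0%). RNA binding was near its background, with 26 genes (15.1%, against 14.9%), and so was cytoplasm, with 58 (33.7%, against 34.8%). ATP binding held 22 (12.8%, against 14.9%), and focal adhesion 15 (8.72%, against 3.57%). The 26 RNA-binding members include translation elongation factor EEF2, the RNA helicase DDX3X, the double-stranded RNA-binding protein ILF2, the Ku subunits XRCC5 and XRCC6, and the prolyl isomerases PPIA and PPIE. Proteins of this kind are known for work outside granules.

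A set of 468 genes with a known part in degranulation or in granule content, sorted into 12 lists by role, was used to ask which kinds were entered. It was written from general knowledge with earlier results of these data known, so its shares are not independent evidence. Some of its genes may also be outside the authors' annotation, and a gene not entered may then have no place in the row at all. In the degranulation row, 204 were entered (43.6%, 95% interval 39.0 to 48.2%), of which 155 are among the 172 genes, and 15 more were entered in other rows only. Entry in the row is also what chose the 172 genes, so the shares by role are a description only. Proteasome and ubiquitin genes had 18 of 22 entered (81.8%, 59.7 to 94.8%), chaperones and redox proteins 12 of 16 (75.0%), and metabolic enzymes 27 of 40 (67.5%). At the other end, granule antimicrobials and proteases had 14 of 51 (27.5%, 15.9 to 41.7%) and serpins and S100 proteins 2 of 17 (11.8%, 1.46 to 36.4%). The lists between them held from 36.8% (lysosomal hydrolases, 14 of 38) to 56.2% (kinases, phosphatases and signalling, 9 of 16).

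**Figure D1:**
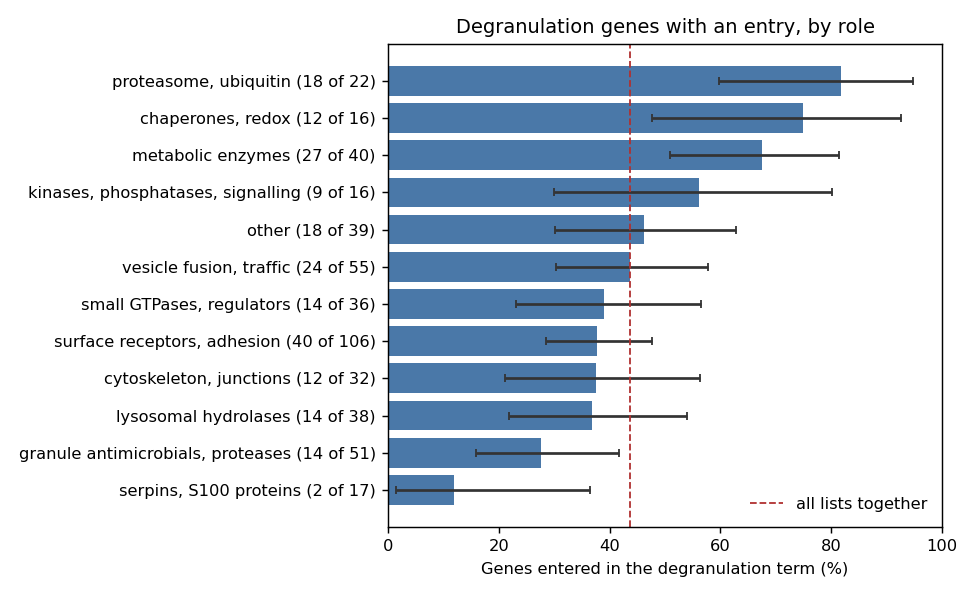
Share of the genes of each role list (rows, number entered of number in the list) that were entered in the degranulation term, in percent (horizontal axis). Bars are shares, whiskers are exact 95% binomial intervals for counting error only, and the dashed line is the share over all lists, 43.6%; proteasome and ubiquitin genes lie at 81.8% and serpins and S100 proteins at 11.8%.

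Of the 51 granule antimicrobials and proteases, 14 were entered. These include MPO, PRTN3, LYZ, LCN2 and RNASE2, classic granule contents that the rule leaves out of the 172. Among other classic contents, lactoferrin (LTF), CAMP, the collagenase MMP8, the gelatinase MMP9, neutrophil elastase (ELANE), AZU1, cathepsin G (CTSG) and the defensins DEFA1, DEFA3 and DEFA4 had no entry in the row. The members of that list were ADAM10 and ADAM8, membrane proteases that shed surface proteins, CFP (properdin, which stabilises the complement convertase), CRISPLD2, LRG1, ORM1 and ORM2 (acute-phase glycoproteins), QSOX1 (which forms disulfide bonds) and TNFAIP6 (a hyaluronan-binding protein). MMP24, a membrane-anchored matrix metalloproteinase, and NCSTN, a subunit of gamma-secretase, were placed with them after the table was read. ORM1 and ORM2 are near-identical neighbours 3389 bases apart on chromosome 9, so an entry of either is uncertain, since reads could be shared between them. Among S100 proteins 0 of 6 were entered, with S100A8, S100A9 and S100A12 among those without an entry, and of 7 serpins 1 was, SERPINB10.

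Vesicle fusion and traffic genes had 24 of 55 entered (43.6%, the same as over all lists). STXBP2 and STXBP3, which bind syntaxins during vesicle docking, were both members. So were UNC13D, a priming factor of granule release, RAB3D, a GTPase of regulated secretion, and the large GTPase RAB44. RAB3D, STXBP2 and STXBP3 were the members in vesicle docking involved in exocytosis. The SNAREs VAMP8 and SNAP23 had no entry, nor did SNAP25 and SNAP29, and neither did RAB27A, a GTPase of granule docking. Of 16 RAB GTPases 6 were entered, and RAB14, RAB24, RAB3D and RAB44 are members. In the vesicle list as first written, before ANXA3 was added, the further members were led alphabetically by ANXA2, a calcium-dependent membrane-binding protein. Next came AP1M1 (a subunit of the AP-1 clathrin adaptor), ATAD3B (a mitochondrial ATPase), the phospholipid flippases ATP11A and ATP8B4, and C16orf62 (a part of the retriever recycling complex).

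Among regulators of GTPases, ARHGAP45 and ARHGAP9 promote GTP hydrolysis by small GTPases, DOCK2 activates RAC in leukocytes, GDI2 extracts RAB proteins from membranes, and IQGAP1 and IQGAP2 are scaffolds at the actin cytoskeleton. These 6 and NCKAP1L, a subunit of the WAVE actin-nucleating complex, were the 7 members in GTPase activator activity. The term held 7 of the 172 genes (4.07%) and 148 of all 5237 identifiers. Of the small GTPases, RHOF was a member, and RAC1, CDC42, RHOA and RHOG had no entry in the row. DOCK2 is the longest of the 172 genes at 446 kb (chromosome 5, 169637275 to 170083382, GRCh38.p14). The cytoskeletal members were DBNL and DIAPH1, which act on actin filaments, DSP and JUP (desmosome proteins), GSN (gelsolin, which severs actin) and VCL (vinculin).

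Surface receptors, with a few other surface and secreted proteins listed beside them, made up 27 of the members. In alphabetical order they were led by the adhesion receptors ADGRE3 and ADGRE5, the aminopeptidase ANPEP, BST2 (which tethers viruses), the inhibitory receptor CD300A and the hyaluronan receptor CD44. ITGAL (CD11a) and ITGAX (CD11c), alpha chains of leukocyte integrins, were members, as were PTPRC (CD45), the urokinase receptor PLAUR and the inhibitory receptors LILRB3 and SIGLEC9. The chemoattractant receptors CXCR1, CXCR2, FPR1 and FPR2 had no entry, nor did the 4 CEACAM receptors of the list. The shortest of the 172 genes was in this list, CXCL1 at 1.92 kb, a chemokine that attracts neutrophils.

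Lysosomal hydrolases had 14 of 38 entered, 12 of them members. These were led by the phosphatase ACPP, the fucosidase FUCA1, the glucosidase GAA, the sulfatase GALNS, and the galactosidases GLA and GLB1. PSAP, a precursor of activators of sphingolipid breakdown, and GRN (progranulin) were also members. Of 8 cathepsin genes, CTSD and CTSS were entered and are left out of the 172 by the rule, and CTSA, CTSB, CTSC, CTSG, CTSH and CTSZ were not entered. Metabolic members included ACAA1 (peroxisomal thiolase), ACLY (which makes acetyl-CoA from citrate), ALAD (of haem synthesis), ALOX5 (which starts leukotriene synthesis) and AMPD3 (AMP deaminase). LTA4H, the next enzyme to leukotriene B4, was a member as well. The members in glycogen catabolic process included GAA, PGM2, PYGB and PYGL. PGM2 is a phosphoglucomutase, and PYGB and PYGL are the brain and liver forms of glycogen phosphorylase. In the authors' deposited table that term had 14 entries on 16 genes, a rich factor of 2.63 and a corrected p of 0.864.

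Signalling members of the list as first written were led by CDK13 (a kinase of transcription), the adaptor DOK3 and the SRC-family kinase FGR. Next came the stress kinase MAPK14 (p38), the phosphatase PTPN6 (SHP-1) and the scaffold SDCBP (syntenin). Some members were taken by no other list. Those listed before the table was read were led by DDX3X, EEF2, GCA (grancalcin, a calcium-binding protein), GHDC, ILF2 and KPNB1 (importin beta, which carries proteins into the nucleus). Among the chaperones were CCT2 and CCT8 (subunits of the chaperonin that folds actin and tubulin), ERP44 (which retains proteins in the secretory pathway), HSP90AA1, HSP90AB1 and PPIA.

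The proteasome, which breaks down ubiquitin-tagged proteins, came with subunits of both of its particles. The 13 members were PSMA5, PSMB1 and PSMB7 of the core particle and PSMC2, PSMC3, PSMD1, PSMD2, PSMD6, PSMD7, PSMD11, PSMD12, PSMD13 and PSMD14 of the regulatory particle. They are 13 of the 29 identifiers of the KEGG Proteasome row, which in the authors' deposited table had 29 entries on 45 genes, a rich factor of 1.93 and a corrected p of 0.268. In the degranulation lists 13 of 15 proteasome subunits were entered, with PSMA2 and PSMD3 not in the row. Of the 13, 12 were in both lumen terms, PSMD1 in neither, and all 13 in cytosol and nucleoplasm. The other members of that list were the E3 ligases HUWE1 and UBR4, CAND1 (which exchanges cullin receptors), FAF2 (which recruits VCP to membranes) and the segregase VCP.

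How many rows held a gene differed by role. The 172 genes were in a median of 5 listed GO terms (range 1 to 29), against 4 over all GO and KEGG identifiers. Without the degranulation and lumen terms both medians were 4. Proteasome and ubiquitin members had a median of 22, and the 13 proteasome subunits ranged from 21 to 27. They shared 17 terms that held all 13, such as regulation of mRNA stability and NIK/NF-kappaB signaling, so those rows repeat the same genes. The genes in most terms were XRCC5 (29), which with XRCC6 (24) forms the Ku complex of DNA end joining, then PSMC2 (27), PSMC3 (26) and VCP (26), with PSMD14 also at 24. Of the 20 members in 20 or more terms, 13 were proteasome subunits.

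**Figure D2:**
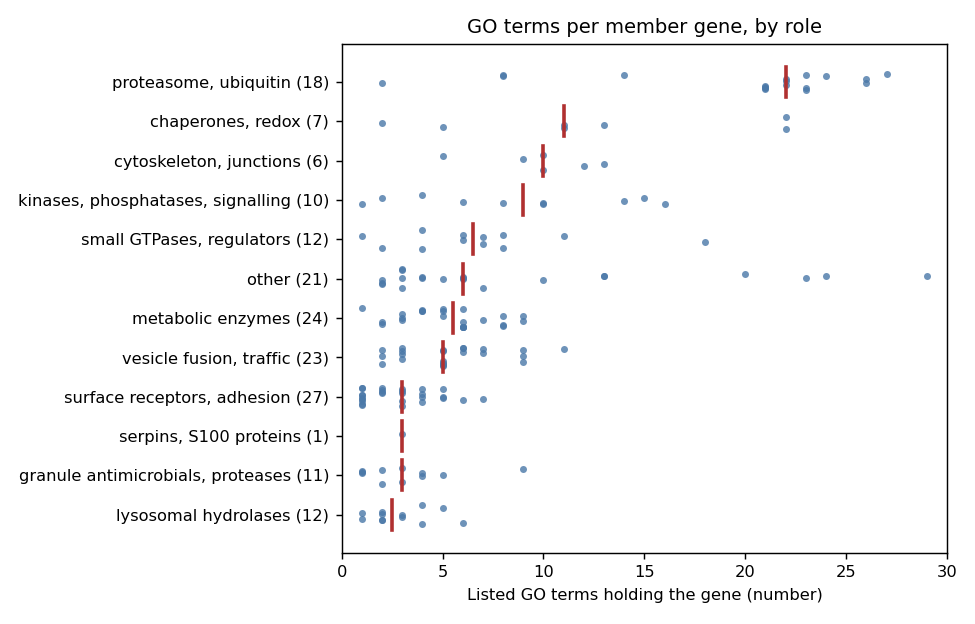
Listed GO terms that hold each of the 172 genes (points, horizontal axis, number of terms), by role (rows, number of genes in brackets), with the median of each role as a red bar. Points are spread vertically only for legibility; the proteasome and ubiquitin row has a median of 22 and the lysosomal hydrolases 2.5.

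At the low end, surface receptors had a median of 3 GO terms, granule antimicrobials and proteases 3 and lysosomal hydrolases 2.5. The degranulation row was the single row of 16 genes (9.30%, against 14.0% of all identifiers in a single row), and 8 of them were in the surface receptor list: ADGRE3, CLEC12A, LILRB3, MCEMP1, NFAM1, OSCAR, SIGLEC9 and the glucose transporter SLC2A3. The others were CFP, DGAT1, DOK3, GALNS, MAN2B1, ORM1, ORM2 and RAB44. These 16 would not have been in the GO and KEGG tables without the degranulation row. In all, 35 of the 172 were in a KEGG pathway, a number that the rule lowers because it leaves out 5 pathways. The share over all identifiers is not given here, so the 35 are not read as few or many.

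The authors' remaining table links genes to 4 RNA-binding protein families (RRM, CSD, PUF and a CCHC zinc finger with RRM), and its origin is not stated in the labels or file headers. It held 20 of the 172 genes (11.6%, 95% interval 7.25 to 17.4%), against 9 of the 50 left-out degranulation genes (18.0%, 8.58 to 31.4%) and 1043 of 5015 genes outside the term (20.8%, 19.7 to 21.9%). Over all 5237 identifiers the share was 20.5%. All 4 families at once were paired with 14 of the genes (8.14%, against 13.2%). These were AMH, AP1M1, CKAP4, CRISPLD2, GSN, HUWE1, ITGAX, MGAM, MMP24, NBEAL2, QSOX1, RAP2B, TMC6 and UBR4. NBEAL2 is known for the formation of platelet alpha-granules, RAP2B is a RAS-related GTPase, MGAM is a maltase-glucoamylase, and CKAP4 is a membrane protein of the endoplasmic reticulum. AMH codes for anti-Müllerian hormone. CPPED1, DSP, PYGL and UNC13D had 3, and MANBA and PTGES2 had 2. RRM and CSD were paired with all 20 and PUF with 18.

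**Figure D3:**
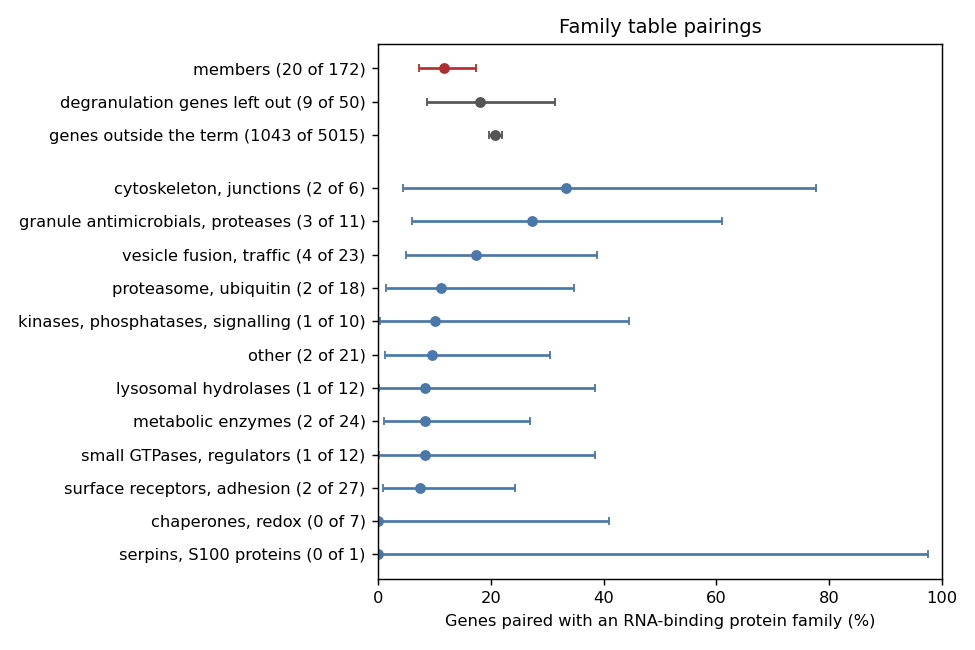
Share of genes paired with any family of RNA-binding proteins (points, horizontal axis, percent) with exact 95% binomial intervals for counting error only; the 172 genes in red, comparison sets in grey, roles of the 172 in blue. The 172 genes lie at 11.6% and genes outside the degranulation term at 20.8%.

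By role, the pairings rested on few genes in each list. The cytoskeletal members had 2 of 6 (33.3%, DSP and GSN) and granule antimicrobials and proteases 3 of 11 (27.3%), against 20.5% over all identifiers. The other lists lay below that share, with vesicle proteins at 4 of 23 (17.4%). Surface receptors had 2 of 27 (ITGAX and MGAM), and chaperones 0 of 7. The 13 proteasome subunits had 0 (exact 95% upper limit 24.7%, for counting error only and as if subunits of the same complex were independent). Without them the share of the remaining 159 genes was 12.6%. Paired members spanned a median of 46.5 kb of genome, unpaired members 28.4 kb, and over all GO and KEGG identifiers the medians were 41.3 kb and 33.3 kb. Within length classes the 172 genes lay below all identifiers each time, on few paired genes in a class. Under 10 kb the shares were 10.0% (3 of 30) and 12.6%, and from 10 to 30 kb 7.14% (4 of 56) and 19.9%. From 30 to 100 kb they were 12.1% (7 of 58) and 20.1%, and from 100 kb 21.4% (6 of 28) and 27.7%. The part of gene length in this difference beyond these classes was not tested.

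Length also moved with entry into the row over all lists together, and not within every list. The 172 genes had a median genomic length, introns included, of 30.0 kb, against 35.0 kb over all identifiers. In the 468 genes of the lists, those entered had a median of 30.0 kb and those not entered 17.2 kb. The share entered was 33.6% under 10 kb (43 of 128), 41.3% from 10 to 30 kb, 51.1% from 30 to 100 kb and 53.4% from 100 kb (31 of 58). The lists did not all follow this. Entered granule antimicrobials and proteases had a median of 7.10 kb and those not entered 7.65 kb. Entered proteasome and ubiquitin genes had 28.0 kb and those not entered 40.0 kb. Entered genes were also shorter among kinases, phosphatases and signalling (29.6 and 108 kb) and chaperones (11.9 and 15.2 kb). So they were among small GTPases (29.5 and 34.0 kb) and metabolic enzymes (32.6 and 33.2 kb). In the remaining lists the entered genes had the longer median. The 6 S100 genes, with 0 entered, had a median of 3.23 kb and the 3 defensins 2.44 kb. The part of gene length in the shares by role was not tested, nor was that of transcript level, which the tables do not hold.

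**Figure D4:**
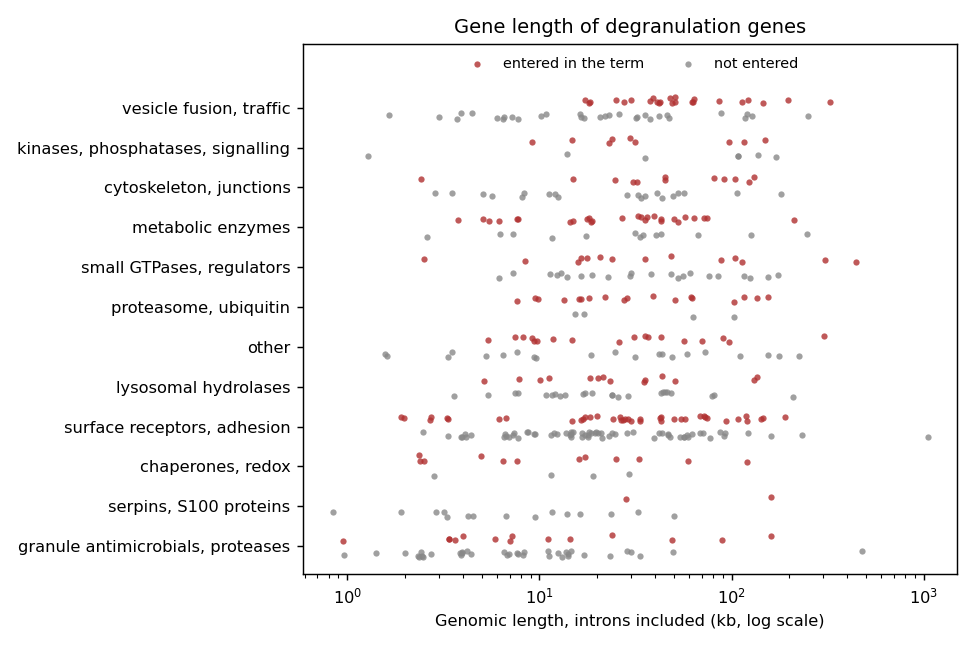
Genomic length with introns (horizontal axis, kb, log scale) of the genes of each role list (rows), with genes entered in the degranulation term in red above genes not entered in grey. Over all lists the medians are 30.0 kb entered and 17.2 kb not entered, and both kinds overlap in every list.

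Some entries do not point to 1 gene. Of the 172 identifiers, 9 carried more than 1 symbol (5.23%, against 5.56% of all), among them CPNE1, GSN, ITGAL, MMP24, NAPRT, PPIE, PYGL and RAB24. They held 11 additional symbols, of which 9 had no match in the reference. The matched ones were PPIEL, a transcribed pseudogene 179 kb from PPIE on chromosome 1, and MXD3, a separate protein-coding gene 1779 bases from RAB24 on chromosome 5 (177305499 to 177312752). MXD3 is a transcription factor of the MYC network, and its own identifier was not entered, so the RAB24 entries may rest on either gene. MMP24 was paired with families only through RP4-614O4.13, and its own symbol had none. GSN had 3 families under its own symbol and the fourth through AL513122.1. GSN also overlaps RAB14, on the other strand, by 387 bases on chromosome 9, and whether peaks were assigned by strand is not stated in the labels.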

How the data were processed

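RIP-seq was run on HL-60 cells, per the labels, with 1 IP and 1 input library. The authors deposited, per the file headers, GO and KEGG tables with numbers of input entries and background genes, a rich factor (a ratio, or fold), a p-value and a corrected p-value per term, and the entries as identifier and symbol. A further deposited table pairs symbols with RNA-binding protein families. Per the submitters' processing notes, the named build is hg38; neither the aligner nor the peak caller was given in the sources used here. Read counts were not analysed, so depth is unknown.

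Members were matched by identifier to RefSeq (GRCh38.p14), with 250 upstream bases as promoters. Shares have Clopper-Pearson (exact) 95% intervals for counting error alone; the interval code was tested on simulated data. Python 3.11.15, scipy 1.17.1 and matplotlib 3.10.9 were used. No column of per-sample values was left out (0). The rule for naming genes took members paired with all families, members with several symbols, the 5 in most GO terms, and the shortest and longest. It also took up to 6 members of each role list as first written, in alphabetical order. Other names were chosen after their values were seen. The members, the role lists and the alternatives were chosen with earlier results of these data known, and 17 members were given a role after the table was read. Some items are not reported here. All results are descriptions without a test, as the tables hold no value per library.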

Additional observations from a re-analysis of the deposited data

How the results depend on the processing

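Under the other settings the number of genes was 183 with each symbol counted once, 222 without the exclusions and 163 with single-symbol identifiers. The share paired with any family ranged from 10.4% (single-symbol identifiers) to 13.1% (all degranulation genes). The share paired with all families at once, a stricter measure, was 8.14%, against 13.2% over all identifiers. The share of listed degranulation genes ranged from 45.0% to 47.4%, and median gene length was 29.6 kb for single-symbol identifiers. The median of 5 GO terms per gene became 2 when only terms with a corrected p under 0.05 were counted, by the construction of that alternative, and the median over all identifiers was then also 2. Leaving out the proteasome subunits, the degranulation and lumen terms, using own symbols only, genes over 10 kb only and leaving out genes of other rows were alternatives chosen after seeing the data.

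No paired analysis was possible because each group had 1 library and no result came from a test. No library was left out, for the same reason. Median protein length and the shares with hydrophobic stretches were planned and not run, since no protein sequences were used here. Depth is unknown, so no entry was weighed by its reads.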
